A study of Mus musculus with 3 samples.

Results

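The 10 receptor genes described here bind transforming growth factor beta (TGF-beta), activins and bone morphogenetic proteins (BMPs). They were taken by symbol from 25410 gene symbols: the type I receptors Tgfbr1, Bmpr1a, Bmpr1b, Acvr1 and Acvr1b (5 genes), the type II receptors Bmpr2, Acvr2a, Acvr2b and Tgfbr2 (4 genes) and the type III receptor Tgfbr3 (1 gene). Their RNA was measured in 3 RNA-seq libraries of IDG-SW3, a conditionally immortalized mouse cell line whose late osteoblasts mature into cells resembling osteocytes. The cells were expanded with interferon gamma, which keeps the immortalizing gene on, and matured without it in osteogenic medium. All 3 libraries carry the label of differentiation day 35, had parathyroid hormone (PTH, 100 nM) over the last 24 h before harvest, and form 1 group of biological replicates. Ribosomal RNA was depleted from total RNA before strand-preserving libraries were made. Libraries of untreated cells were not analysed here, so no value below is an effect of PTH, and every comparison sets receptors of the same PTH-treated cells against each other or against a fixed level.

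In this family a dimeric ligand brings together type I and type II receptors, both of them serine/threonine kinases of the membrane. The type II kinase phosphorylates the type I receptor, which then phosphorylates the receptor Smads: Smad2 and Smad3 on the TGF-beta and activin branch, Smad1, Smad5 and Smad9 on the BMP branch. Type III receptors have no kinase and present ligand to the signalling pair. In bone, BMP signals promote osteoblast differentiation, and TGF-beta stored in the matrix acts on osteoblasts and osteocytes.

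The libraries held 35195518, 37299517 and 45240005 counts in replicates 1, 2 and 3. Levels are given as RPKM, counts per kilobase of transcript and per 1000000 counts, as mean ± SD over the 3 libraries (n = 3), with the median length of each gene's transcripts. Of the 10 receptors, 8 had 1 row in the deposited files, whereas Acvr1 had 3 rows and Tgfbr2 had 2. Among protein-coding symbols, 31.7% of those with several rows were listed at 0 in all 3 libraries, against 2.65% of those with 1 row. The median level was 0.0689 RPKM with several rows and 0.914 RPKM with 1 row, so a low value of Acvr1 or Tgfbr2 is not read as absence. The 15 housekeeping genes with 1 row were all above 1 RPKM, but ran from Polr2a at 5.94 to Eef1a1 at 5200, with Gapdh at 32.6. With its RefSeq-linked transcript length in place of the median, Tbp moved from 6.18 to 0.956 RPKM. Whether genes with 1 row were fully counted was not tested. The labelled cell type was checked against markers: 5 of 6 osteoblast genes were above 1 RPKM, with Ibsp (bone sialoprotein) at 2052 ± 415, and so were 2 of 6 osteocyte genes, Pdpn (podoplanin) at 156 ± 27.6 and Phex at 9.05 ± 0.940. The osteocyte markers Dmp1, Mepe, Fgf23 and Sost were each below 1 RPKM on average and unresolved by the test. These marker counts, and those of the lists that follow, are to be read against the 43.2% called above among 21012 genes tested. Genes at 0 in all 3 libraries were not tested, although the lists count them. Of all 23048 symbols with a length, 9084 were called above. Above 1 RPKM among markers of other cells were 1 of 6 endothelial, 0 of 5 macrophage, 2 of 5 adipocyte, 3 of 5 chondrocyte and 0 of 4 muscle genes. Over the 3 libraries the summed levels of these lists ran from 2.93 to 3.38, 0.442 to 1.65, 9.78 to 16.5, 49.1 to 67.7 and 0.474 to 0.713 RPKM, and their part in the receptor levels was not tested. Among them were Comp at 49.9, Fabp4 at 9.73, Sox9 at 4.17, Col10a1 at 3.90, Kdr at 2.62 and Adipoq at 1.88 RPKM. With 1 row and called below 1 RPKM were Acan (0.687), Lep (0.354), Tek (0.336), Des (0.200), Csf1r (0.152) and Cdh5 (0.128). Col2a1, with 2 rows, was also called below (0.118). The defining markers Pecam1, Emcn, Itgam and Plin1 were at 0, which their several rows leave unreadable.

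The DNA before the gene starts shows how unlike the receptors are in base composition, and 3 windows are printed: those of the highest type I and type II genes and that of the type I gene with the fewest CpG dinucleotides. Each is the 250 bases before a start, 5′ to 3′ on the gene's strand, from RefSeq on build GRCm38.p6, at chr4:47352972-47353221 (plus strand) for Tgfbr1, chr2:48813859-48814108 (plus) for Acvr2a and chr3:141982265-141982514 (minus) for Bmpr1b. Capitals mark GGGCGG (GC box) and TATAAA on either strand.
Tgfbr1: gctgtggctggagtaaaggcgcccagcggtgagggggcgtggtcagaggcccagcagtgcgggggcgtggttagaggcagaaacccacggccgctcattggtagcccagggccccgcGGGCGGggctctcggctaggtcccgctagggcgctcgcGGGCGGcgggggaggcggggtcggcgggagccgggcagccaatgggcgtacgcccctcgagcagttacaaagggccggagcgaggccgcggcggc
Acvr2a: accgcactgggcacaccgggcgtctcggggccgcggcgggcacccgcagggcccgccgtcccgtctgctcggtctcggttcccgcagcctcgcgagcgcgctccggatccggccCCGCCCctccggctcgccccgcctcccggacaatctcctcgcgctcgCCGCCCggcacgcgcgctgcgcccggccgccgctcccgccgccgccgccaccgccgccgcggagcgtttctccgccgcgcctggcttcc
Bmpr1b: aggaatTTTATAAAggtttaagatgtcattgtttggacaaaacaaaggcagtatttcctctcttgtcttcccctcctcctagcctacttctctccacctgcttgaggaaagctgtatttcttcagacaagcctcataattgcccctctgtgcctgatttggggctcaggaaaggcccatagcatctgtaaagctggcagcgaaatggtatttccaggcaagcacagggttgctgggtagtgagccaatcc

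RefSeq windows were found for 9 receptors, 12 windows in all, and Tgfbr3 had none. The Acvr2a window held 49 CpG, the printed Tgfbr1 window 29 and the other Tgfbr1 window 3, against a median of 6 over 32851 windows of the same length. The Bmpr1b window held 1 CpG, and both other Bmpr1b windows 5. The GC box GGGCGG occurred in 7 of the 12 receptor windows and in 32.7% of all windows. TATAAA occurred in 1 receptor window, that of Bmpr1b printed above, where matches on both strands overlap, and in 12.4% of all windows. The cyclic AMP response element TGACGTCA was found in 0 of the 12 receptor windows and in 1.55% of all windows. CpG number did not follow the level alone: the Acvr2b window held 24 CpG, and Acvr2b RNA was near 0. These matches describe the letters in these windows only.

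Type I receptors spanned the widest range, and 4 of 5 were called above 1 RPKM, against 43.2% of all genes tested. Tgfbr1 encodes ALK5, the type I receptor of TGF-beta. It stood at 223, 226 and 217 RPKM in replicates 1, 2 and 3, the highest level of the family. Its mean of 222 ± 4.54 RPKM was higher than that of 98.3% of symbols with 1 row. The SD of its log2 level was 0.03, and 2.91% of 8998 genes with 1 row and a mean count of at least 100 had a smaller one. Bmpr1a encodes the BMP receptor ALK3, and stood at 69.3, 59.9 and 75.3 RPKM (mean 68.1 ± 7.74). All 3 Tgfbr1 values lay above all 3 Bmpr1a values. Exons of Bmpr1a overlap a predicted gene model on the opposite strand over 290 bases, and reads there may not have been kept apart.

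Bmpr1b encodes ALK6, the close relative of ALK3 that is best known from cartilage condensations of the limb. Its levels were 1.16, 1.39 and 2.12 RPKM (mean 1.56 ± 0.498), from 129, 164 and 302 counts. Replicate 3 was the highest. Its call above 1 RPKM (edgeR adjusted p = 0.0034) was lost without replicate 3 (0.218), and with the longest transcript the mean was 0.918 ± 0.294 RPKM and the direction turned. The BMP type I receptors were thus uneven: Bmpr1a had 42.8 times the counts of Bmpr1b per kilobase (interval from counting error 39.5 to 46.5 over the pooled libraries). Libraries differed by more than this interval covers: the ratio ran from 38.2 (replicate 1 left out) to 50.3 (replicate 3 left out). It was 52.7 with the shortest and 48.2 with the longest transcripts.

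Acvr1b encodes ALK4, the type I receptor of activins. It was steady at 3.54, 3.52 and 3.29 RPKM (mean 3.45 ± 0.142), and Tgfbr1, which signals through the same Smads, had 64.6 times its counts per kilobase (interval 61.6 to 67.7). With the longest or RefSeq-linked lengths this ratio was 26.3. Acvr1 encodes ALK2, the BMP type I receptor mutated in fibrodysplasia ossificans progressiva. It was listed with 0, 10 and 0 counts over its 3 rows, a level that its row number leaves unreadable (edgeR adjusted p = 0.121 against 1 RPKM).

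**Figure D1:**
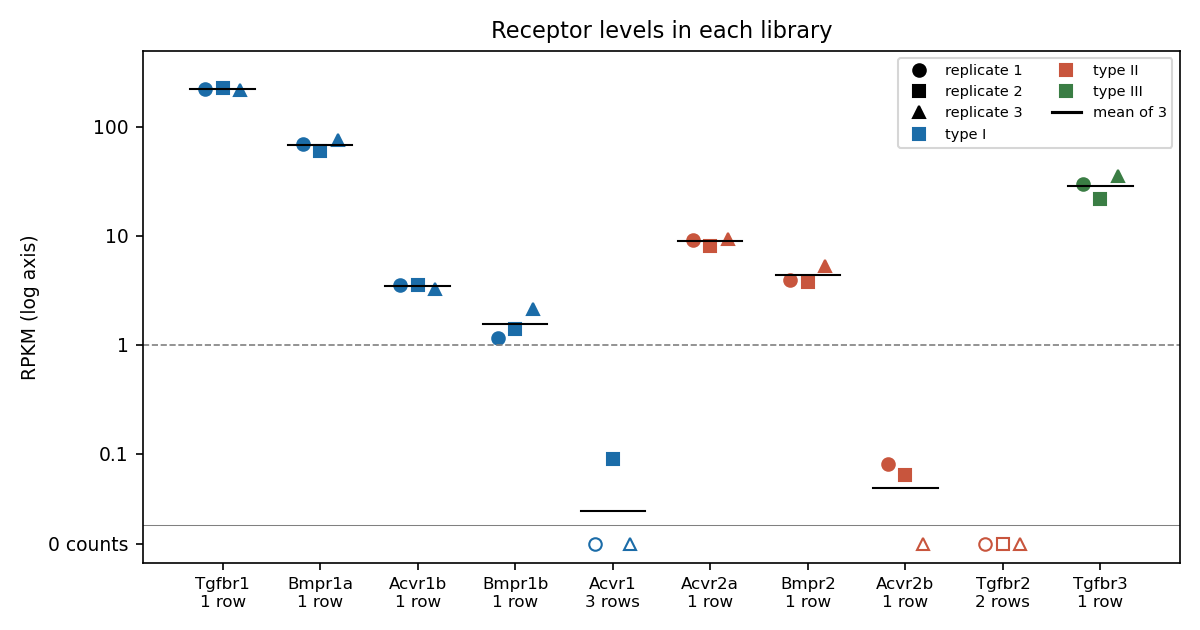
Level of each receptor in RPKM (log axis) in the 3 libraries, grouped by receptor type; symbols are replicates, horizontal bars means, open symbols libraries with 0 counts, and the dashed line 1 RPKM. Tgfbr1 stood highest at 222 RPKM, and Acvr1, Acvr2b and Tgfbr2 had libraries at 0.

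Type II receptors were lower than type I in their summed level and in their highest gene, but not gene by gene. By mean level, Acvr2a and Bmpr2 stood above the type I genes Acvr1b and Bmpr1b. Of the 4 type II genes, 2 were called above 1 RPKM, against 43.2% of all genes tested. Tgfbr2, without counts, was not tested and could not be read. Acvr2a encodes ActRIIA, which binds activins and several BMPs. It stood at 9.17, 8.08 and 9.44 RPKM (mean 8.90 ± 0.724), and was the highest of the type. Its exons overlap those of Orc4, on the opposite strand, over 446 bases. Orc4 stood at 2.04 RPKM, and whether the counting separated strands is not given in the sources used here. Bmpr2 encodes the type II receptor of BMPs, mutated in pulmonary arterial hypertension. It stood at 3.95, 3.81 and 5.27 RPKM (mean 4.34 ± 0.805), with replicate 3 above the others. In raw counts Bmpr2 (6699 over the 3 libraries) and Acvr2a (5978) were close; the transcript lengths of 12899 and 5686 bases set them apart, and Acvr2a had 2.02 times the counts per kilobase (interval 1.95 to 2.10).

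Acvr2b encodes ActRIIB, which shares most ligands with ActRIIA. It had 6, 5 and 0 counts in 1 row, or 0.0485 ± 0.0429 RPKM. Acvr2a had 200.04 times its counts per kilobase (interval 112 to 401). Resting on 11 Acvr2b counts, the ratio ran from 119 (replicate 3 left out) to 305 (replicate 1 left out), and it was 303 under the longest or RefSeq-linked lengths. The low level did not pass the test against 1 RPKM (edgeR adjusted p = 0.148), whereas limma called it below (adjusted p = 1.19e-05). Tgfbr2 encodes the type II receptor that TGF-beta needs to signal. Both of its rows were at 0 in all 3 libraries, which allows up to 0.0147, 0.0139 and 0.0115 RPKM at 3 counts per library. With several rows, this 0 is not read as absence of the transcript.

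Tgfbr3, the type III receptor betaglycan, presents TGF-beta2 and inhibin. It stood at 29.7, 21.7 and 35.3 RPKM (mean 28.9 ± 6.83), below Bmpr1a and above every type II receptor in each library. Over 297 exon bases it overlaps a predicted gene model on its own strand. Its level varied more between libraries than most: the SD of its log2 level was 0.36, against a median of 0.16, and 86.4% of the 8998 genes had a smaller one. For Bmpr1b the SD was 0.44 and that share 92.4%. Replicate 2 was the lowest library for Tgfbr3, Bmpr1a, Acvr2a and Bmpr2, while Tgfbr1 was highest there.

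Summed over genes, type I transcripts reached 297, 291 and 298 RPKM, type II 13.2, 11.9 and 14.7, and type III 29.7, 21.7 and 35.3. These sums did not overlap between the 3 types. Of the summed levels of all receptors, type I made up 87.5% ± 2.01, type II 3.93% ± 0.278 and type III 8.53% ± 1.74. The type II sum was lower than the type I sum by a log2 ratio of −4.48 ± 0.13, a 22.3-fold difference. Tgfbr3 was lower than the type I sum with a log2 ratio of −3.38 ± 0.34 and higher than the type II sum with 1.10 ± 0.21, each in 3 of 3 libraries. The exact two-sided sign-flip permutation test gave p = 0.25 for each, the smallest p that 3 libraries allow. Tgfbr1 alone made up 75.3% ± 2.39 of the type I sum and Bmpr1a 23.0% ± 2.35, while Acvr2a made up 67.1% ± 2.68 of the type II sum. Both the type I and the type II sums are lower limits, because Acvr1 and Tgfbr2 could not be read, so their ratio is not bounded on either side.

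**Figure D2:**
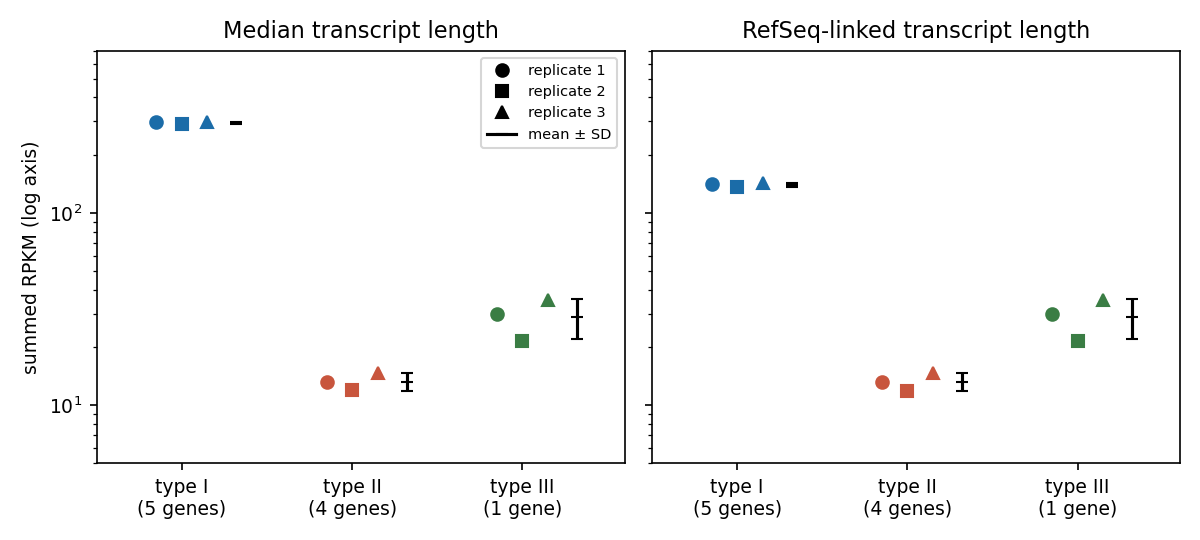
Summed RPKM (log axis) of the type I, type II and type III receptors in each of the 3 libraries, with mean ± SD at the right of each group, under the median transcript length and the RefSeq-linked length. Type I stood near 295 RPKM in the left panel and near 140.1 in the right, and the order of the types was the same in both.

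How far type I stood above the others depended on the transcript length taken for Tgfbr1 and Bmpr1a. Tgfbr1 transcripts ran from 1713 to 5756 bases and Bmpr1a transcripts from 1945 to 5956. With the RefSeq-linked length, an alternative chosen after seeing the data that equalled the longest transcript for each of the 10 receptors, Tgfbr1 stood at 90.6 ± 1.85 and Bmpr1a at 45.2 ± 5.14 RPKM. The type I sum was then 140.1 ± 3.45 RPKM, 10.6-fold above type II and 4.94-fold above type III. Tgfbr3, Acvr2a, Bmpr2 and Acvr1b each have a single length, so their levels did not move. Among the 6 highest receptors (Tgfbr1, Bmpr1a, Tgfbr3, Acvr2a, Bmpr2, Acvr1b), only Tgfbr1 and Bmpr1a could therefore move. The order of the 6 was the same with the shortest, median, longest and RefSeq-linked lengths.

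**Figure D3:**
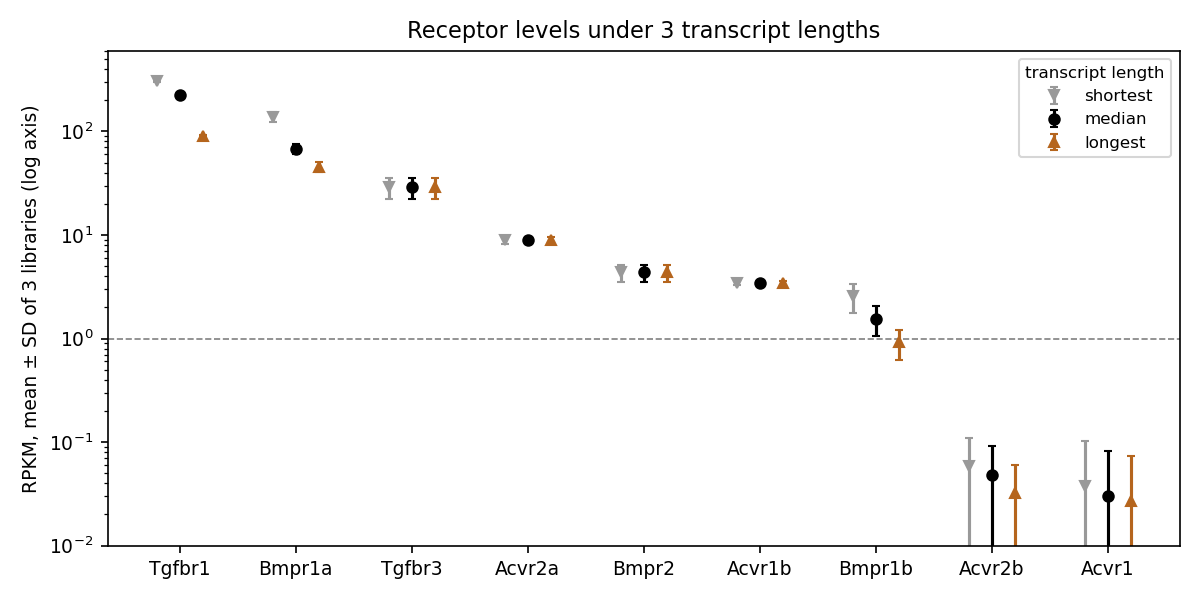
Mean RPKM ± SD over 3 libraries (log axis) of the 9 receptors with counts, with the shortest, median and longest transcript length; the dashed line is 1 RPKM, and bars that reach the axis run below it. Tgfbr1, Bmpr1a and Bmpr1b move with the length, and Bmpr1b crosses 1 RPKM.

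Against a fixed level of 1 RPKM, edgeR's quasi-likelihood test called 7 receptors above and 0 below, and left Acvr1 and Acvr2b unresolved; Tgfbr2 had no counts to test. Over all 21012 genes tested, 43.2% were called above and 13.4% below. At an unadjusted p under 0.05 the count below was also 0. DESeq2 called 6 above and 0 below, without Bmpr1b, and limma 7 above and 2 below. Over all genes, DESeq2 called 7472 above and 268 below, and limma 9010 above and 9855 below. The median level of the 10 receptors was 3.90 RPKM, against 0.497 over all symbols. That of the 8 with 1 row was 6.62, against 0.694 over all symbols with 1 row and 0.914 over the protein-coding ones.

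Receptors were then ordered by level within the libraries, each set against 3 reference receptors by limma, fitted over all genes. Of the 8 other receptors with counts, 8 differed from Bmpr1a, and 98.4% of all genes did: 1 was higher and 7 lower, against 4.47% and 93.9% of all genes. From Tgfbr3, 8 of 8 differed (93.9% of all genes), 2 higher and 6 lower, against 8.35% and 85.6%. From Bmpr2, 7 of 8 differed (93.1% of all genes), 4 higher and 3 lower, against 28.8% and 64.3%. Shares this close to those of all genes say little about the receptors themselves. The limma p-values below also draw on the spread of all genes, and they change with the reference receptor. For Bmpr1a against Bmpr2 the limma adjusted p was 2.51e-17 with Bmpr1a as reference and 2.45e-120 with Bmpr2. At the median lengths the exact sign-flip test gave p = 0.25 for each step in this paragraph, the smallest p that 3 libraries allow. The step from Tgfbr1 to Bmpr1a was 1.71 ± 0.19 on the log2(RPKM + 0.1) scale (limma adjusted p = 8.37e-15), and that from Bmpr1a to Tgfbr3 1.26 ± 0.19 (1.11e-10 with Bmpr1a as reference). With the RefSeq-linked lengths these steps were 1.01 and 0.66, and with the shortest 1.14 and 2.28, each in the same direction. The limma adjusted p of the second, with Tgfbr3 as reference, was 4.39e-08 and became 0.00433 with the RefSeq-linked lengths. Acvr2a lay 1.66 ± 0.24 below Tgfbr3 (limma adjusted p = 8.59e-11) and 1.03 ± 0.18 above Bmpr2 (7.96e-08).

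Some neighbours in this order could not be told apart. Between Bmpr2 and Acvr1b the log2 difference of 0.31 ± 0.31 did not pass (limma adjusted p = 0.178), although Bmpr2 was the higher in 3 of 3 libraries, with a counting interval of 1.22 to 1.35 for the pooled ratio. With the correction for GC content the difference was 0.12 and their values overlapped. Acvr1b exceeded Bmpr1b by 1.14 ± 0.47, but by 1.84 with the RefSeq-linked lengths and 0.45 with the shortest, where their values overlapped. At the bottom, Acvr2b and Acvr1 overlapped, with a pooled ratio whose counting interval ran from 0.602 to 4.10.

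Genes outside the family with the most similar levels over the 3 libraries were found by Euclidean distance of log2 levels. For Tgfbr1 they were Hnrnpk (distance 0.0538), Ppp3ca (0.0599) and Vcp (0.0666). Acvr2a was nearest to Lta4h (0.0520), Igdcc4 (0.0675) and Slc30a6 (0.0761). For Tgfbr3 the nearest were Ttc35 (0.0966), Dr1 (0.158) and Rnf115 (0.188). The distance compares levels in 3 libraries only.

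The remaining receptors and coreceptors of the family included 5 of 12 above 1 RPKM, 2 below and 5 unresolved. These shares were near the 43.2% above and 13.4% below over all genes tested. The list median was 0.298 RPKM. Nrp1, a neuropilin that also binds TGF-beta, stood at 106 ± 6.17 RPKM, and Cd109, an anchored TGF-beta coreceptor, at 10.3 ± 2.61. Acvrl1 encodes ALK1, the type I receptor known from endothelium, and stood at 4.61, 4.60 and 3.93 RPKM (mean 4.38 ± 0.388), above Acvr1b in each library. With the RefSeq-linked length it was 2.31 RPKM and below Acvr1b. Among endothelial markers Kdr stood at 2.62, Tek at 0.336, Cdh5 at 0.128 and Tie1 at 0.0556 RPKM, and their part in the Acvrl1 level was not tested. The pseudoreceptor gene Bambi stood at 2.48 ± 0.503 and the BMP coreceptor gene Rgmb at 2.30 ± 0.792. Rgma (0.395 RPKM) and Eng, which encodes endoglin (0.110 RPKM, 3 rows), were called below 1 RPKM. Tdgf1 (0.202), Cfc1 (0.198), Amhr2 (0.0985), Hfe2 (0.0895) and Acvr1c (0.0587, 2 rows) were unresolved.

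Among the ligands, the shares above 1 RPKM are again to be read against 43.2% of all genes tested. Of 13 TGF-beta and activin ligand genes, 6 were above 1 RPKM, 3 below it and 3 unresolved, while 1 had no counts; their median was 1.36 RPKM. Tgfb3 stood at 55.3 ± 2.77 RPKM, the activin subunit gene Inhbb at 33.7 ± 2.14 and Tgfb2 at 32.6 ± 5.95. Inhba, another activin subunit gene, stood at 20.4 RPKM, but at 52.8 with the RefSeq-linked length, where it ranked second. Of 18 BMP and GDF ligand genes, 6 were above, 4 below and 8 unresolved. Their median was 0.656 RPKM, against 0.694 over all symbols with 1 row and 0.914 over the protein-coding ones. Bmp4 was highest at 21.7 ± 1.04, followed by Bmp2 at 4.91 ± 2.07, with 3.77, 3.66 and 7.30 RPKM in the 3 libraries, and Gdf7 at 4.52 ± 1.09. Of 15 secreted antagonists, 8 were above, 1 below and 6 unresolved (median 2.34 RPKM). Twsg1, which binds BMPs together with chordin, stood at 52.3 ± 9.20, the activin-binding follistatin gene Fst at 40.5 ± 4.86 (26.4 with the RefSeq-linked length) and the BMP antagonist gene Grem1 at 37.0 ± 1.69.

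Downstream of the receptors, 6 of 8 Smad genes were above 1 RPKM, 1 below and 1 unresolved. These counts, and those of the lists that follow, are to be read against 43.2% above and 13.4% below over all genes tested. The unresolved gene was Smad5, with 13, 2 and 1 counts over 3 rows, a level that its row number leaves unreadable. The Smad list had the highest median of the pathway lists at 13.6 RPKM. Smad2 stood at 31.3 ± 2.15, the common partner Smad4 at 23.6 ± 1.52 and Smad3 at 21.7 ± 0.245. With the RefSeq-linked lengths the list median was 6.81 RPKM, still the highest of these lists, and Smad2 was at 7.85. Among 17 regulators of the receptors, 11 were above, 1 below, 3 unresolved and 2 at 0, both with several rows (median 4.80 RPKM). Strap, which binds the type I receptor and Smad7, stood at 74.6 ± 5.62, the ubiquitin ligase gene Smurf2 at 46.9 ± 1.06 and the deubiquitinase gene Usp4 at 19.2 ± 0.275. Of 16 known target genes, 10 were above, 1 below and 5 unresolved (median 1.94 RPKM). The TGF-beta target Tgfbi stood at 34.6 ± 3.77 RPKM and Junb at 25.6 ± 2.04.

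**Figure D4:**
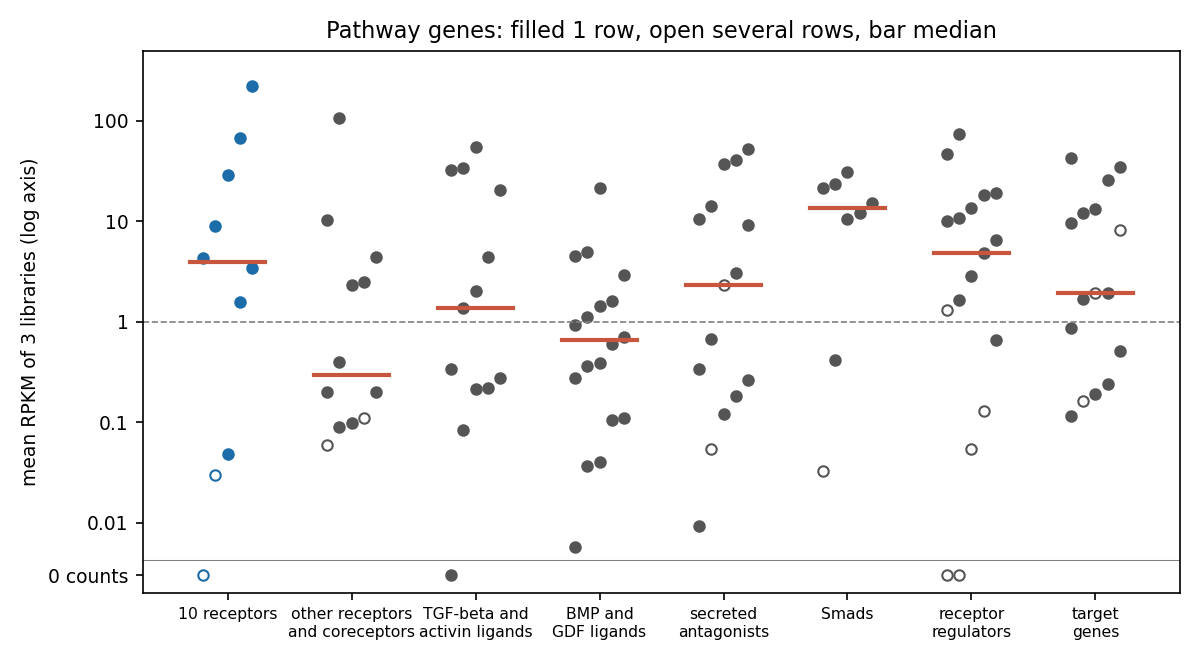
Mean RPKM over 3 libraries (log axis) of each gene of the receptor family and of 7 pathway lists; filled symbols have 1 row, open symbols several rows, bars are list medians and the dashed line is 1 RPKM. The 10 receptors span from 0 counts to 222 RPKM, and the Smad list has the highest median at 13.6 RPKM.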

How the data were processed

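RNA-seq was made from 3 libraries of 1 group. The deposited values are whole-number counts per transcript row, named by symbol. The files call them RPKM, but each value is whole and the totals differ by library, so they were used as counts, on which all levels here rest. TopHat and build mm9 are named in the submitters' processing notes. Counting tool, annotation and treatment of strand and of shared reads: not given in the sources used here. Of 30795 rows, those of a symbol were summed. Lengths were medians over basic transcripts of GENCODE M21 (GRCm38) for 23048 symbols, 20840 matched directly and 2208 by synonym; they held 96.3% to 96.5% of counts.

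Levels were tested two-sided against 1 RPKM with edgeR 4.0.16 (quasi-likelihood F test of the single coefficient, robust, offset at 1 RPKM, Benjamini-Hochberg adjustment over all genes above 0 in a library, threshold 0.05). Differences from a reference receptor used limma 3.58.1 on log2(RPKM + 0.1), which understates changes of low genes, adjusted over all genes. DESeq2 1.42.0 was an alternative. Others were library scaling, a filter of 10 counts in 2 libraries, row handling, transcript length, GC content, a pseudocount of 1 and leaving out each library. The edgeR and limma tests were also run on simulated counts, built on the gene levels of these libraries. Count ratios carry exact 95% Clopper-Pearson intervals, which cover counting error only.

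The members and lists were chosen with earlier results of these data known. Named genes were the 10 receptors, each gene of the coreceptor list, the 3 highest of each other pathway list, and the 3 likest genes of the highest receptor of each type; 1 target gene that the rule names is not reported here. Lists were receptors and coreceptors, ligands, antagonists, Smads, regulators, targets, housekeeping genes and cell type markers.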

Additional observations from a re-analysis of the deposited data

How the results depend on the processing

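The 7 receptors called above 1 RPKM became 6 with the longest or RefSeq-linked lengths, the GC correction, DESeq2 or without replicate 3, in each case through Bmpr1b. Its log2 level of 0.64 was −0.12 with the longest and with the RefSeq-linked lengths, 0.44 with the GC correction and 0.35 without replicate 3. No receptor was called below, except 2 by limma. The number of all genes below 1 RPKM was 2817, with 1801 when protein-coding counts alone were the total, 9855 by limma, 268 by DESeq2 and 910 to 2564 with a library left out. The log2 ratio of type II over type I, −4.48, was −5.08 with the shortest, −3.41 with the longest and −3.41 with the RefSeq-linked lengths, and −4.28 with the GC correction. That of type III over type I, −3.38, was −3.98, −2.30 and −2.30 with these lengths. Neither ratio changed sign under the settings run. The scaling by protein-coding counts raised all levels by 0.32 (log2). Numbers of receptors that differed from Bmpr1a, Bmpr2 or Tgfbr3 stayed within 1.5 times under each setting run; the filter removed Acvr1 and Acvr2b. Acvr1 and Acvr2b had 0 to 10 counts a library, and Acvr1 also had 3 rows. For both, edgeR left the level unresolved against 1 RPKM and limma called it below. Why the 2 tests differed was not tested. No paired analysis was possible because the 3 libraries form 1 group.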
